A study of Mus musculus with 6 samples.

Results

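The 10 Sox genes described here are Sox2, Sox4, Sox5, Sox6, Sox8, Sox9, Sox10, Sox11, Sox13 and Sox21, out of 19938 genes measured on expression arrays. They were chosen by name, with earlier results of these data known: a row of the array counted when its annotation gave exactly 1 gene symbol and that symbol was among these 10. Each of the 10 had a single such row. RNA came from mouse embryonic stem cells of the W4/129S6 background that carry a green fluorescent protein (GFP) knock-in reporter at Nkx2-1, a homeodomain transcription factor gene of lung, thyroid and ventral forebrain. The cells had differentiated for 14 days before sorting. The Nkx2-1 high group holds 3 samples labelled Nkx2-1GFP+ and the Nkx2-1 low group 3 samples labelled Nkx2-1GFP-. All 6 thus share the reporter construct, the strain background and the culture time, and the low group is whatever else the culture contained, with no positive marker of its own. The labels call the replicates biological. The comparison asks how cells that switched on Nkx2-1 differ from the other cells of the culture.

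Sox proteins bind the minor groove of DNA through a high-mobility-group (HMG) box and bend it, and they usually act together with partner factors. The family is divided by sequence into lettered subgroups. SoxB1 proteins hold progenitors in an undifferentiated state, SoxB2 proteins counter them, and SoxC proteins act in neuronal differentiation and in embryonic mesenchyme. SoxD proteins carry no activation domain of their own and modulate other Sox proteins, SoxE proteins above all. SoxE proteins direct cartilage, neural crest, glia and gonad. In the lung, Sox2 marks the proximal airway epithelium and Sox9 the distal tips.

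Of the 10 genes, Sox6 rose and Sox4 fell in Nkx2-1 high, and the other 8 did not pass the test. "Rose" and "fell" mean a Benjamini-Hochberg adjusted p under 0.05 from limma over the 19938 genes. By that rule 6.0% of all genes were called, 2.90% as higher and 3.09% as lower, and 8.40% of the 13404 genes above background, so 2 of 10 is too few genes to set the family apart from that background. The median difference of the 10 was -0.054 on the log2 scale and that of all genes -0.0083. The median absolute difference was 0.20 for the 10 and 0.098 for all genes, which include those not above background. Since the 10 were proposed with results of these data known, that gap is not read as a trait of the family. All 10 had a mean above the background level in both groups. That level, a log2 value of 4.30, is the 95th percentile of olfactory and vomeronasal receptor rows, genes with no known role in these cells. The samples of the 2 groups did not overlap for 6 of the 10 genes, Sox4, Sox5, Sox6, Sox10, Sox11 and Sox21, as for 24.7% of all genes. With 3 samples against 3, an exact two-sided permutation test of a single gene cannot go below p = 0.1, and each of these 6 genes stood at 0.1. The arrays give 1 brightness per gene row, so levels of different genes are not set against each other here.

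The sequences just upstream of 4 genes are shown: Sox4 and Sox6, which changed, and their subgroup partners Sox11 and Sox5, which did not pass. Each is the 250 bases before an annotated start, from RefSeq on GRCm38.p6, written 5′ to 3′ on the gene's own strand, which is the minus strand for all 4. Windows for 8 of the 10 genes were in the RefSeq table, all but Sox9 and Sox10. Capitals mark matches, on either strand, to CCAAT (the CCAAT box), AAGTG (a core bound by NK2-class homeodomain proteins, the class of Nkx2-1) and ACAAAG or ACAATG (cores bound by Sox proteins).
Sox4, chr13:28953700-28953949: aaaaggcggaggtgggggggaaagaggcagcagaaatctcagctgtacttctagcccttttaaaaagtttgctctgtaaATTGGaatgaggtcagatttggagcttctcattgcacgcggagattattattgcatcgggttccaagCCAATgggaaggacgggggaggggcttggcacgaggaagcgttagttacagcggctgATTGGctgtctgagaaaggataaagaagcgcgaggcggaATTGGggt
Sox11, chr12:27342719-27342968: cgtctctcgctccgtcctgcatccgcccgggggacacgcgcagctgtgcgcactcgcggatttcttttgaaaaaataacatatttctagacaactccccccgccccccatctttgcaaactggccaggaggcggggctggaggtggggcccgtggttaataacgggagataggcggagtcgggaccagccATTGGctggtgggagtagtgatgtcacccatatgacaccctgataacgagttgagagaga
Sox6, chr7:116038745-116038994: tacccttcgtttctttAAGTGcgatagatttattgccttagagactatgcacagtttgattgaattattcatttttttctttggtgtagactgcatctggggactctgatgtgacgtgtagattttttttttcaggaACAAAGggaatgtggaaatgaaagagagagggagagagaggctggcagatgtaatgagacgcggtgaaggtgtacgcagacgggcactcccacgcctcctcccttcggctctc
Sox5, chr6:143947107-143947356: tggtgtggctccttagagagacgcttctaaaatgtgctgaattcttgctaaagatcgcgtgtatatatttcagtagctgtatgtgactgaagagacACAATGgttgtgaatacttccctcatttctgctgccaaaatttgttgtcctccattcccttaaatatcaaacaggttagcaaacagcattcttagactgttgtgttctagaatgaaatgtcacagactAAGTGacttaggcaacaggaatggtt
The Sox4 window held 4 CCAAT matches and the Sox11 window 1, and neither held an AAGTG or Sox core. The Sox6 and Sox5 windows each held 1 AAGTG and 1 Sox core match and 0 CCAAT matches. Among 32851 windows of this length in the table, 33.8% held CCAAT, 40.7% AAGTG and 25.2% a Sox core. The Sox6 window is the most upstream of 6 starts in the table, which the array does not tell apart, and the Sox5 window precedes a start inside the gene. Over the 6 Sox6 windows the counts ran from 0 to 3 for CCAAT, 0 to 3 for AAGTG and 0 to 4 for the Sox core. The window of Sox13, also a SoxD gene, held 1 AAGTG, 0 CCAAT and 0 Sox core matches. The counts shown thus do not describe a whole gene or subgroup. A match is a stretch of letters, and nothing on these arrays measures binding.

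**Figure D1:**
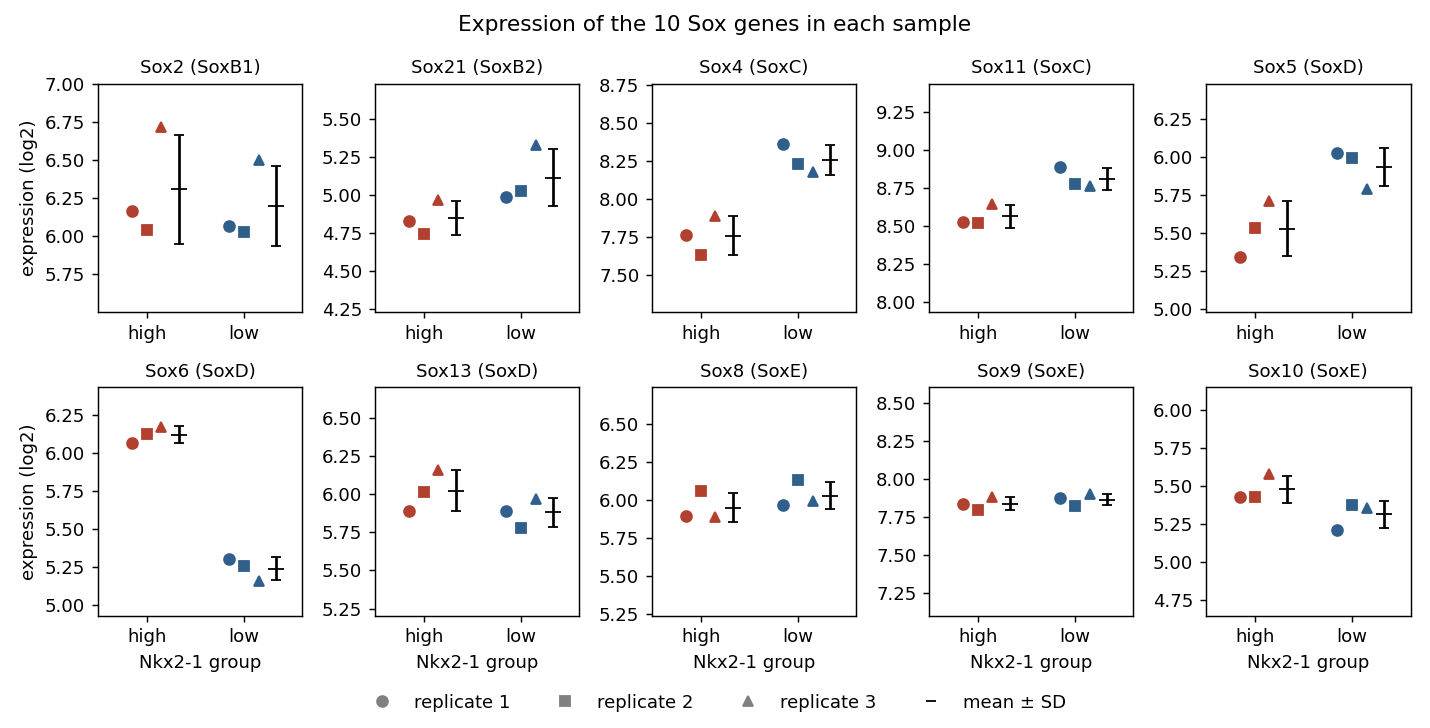
Log2 expression of each of the 10 Sox genes in every sample, with red points for Nkx2-1 high and blue for Nkx2-1 low, the marker shape giving the replicate number and the bar the mean ± SD of 3 samples. Each panel spans the same log2 range around its own mean, and the groups lie furthest apart for Sox6, at 6.07 to 6.17 against 5.16 to 5.30.

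The SoxD genes differed among themselves. Sox6, whose protein shapes cartilage, erythroid and interneuron development, stood at 6.07, 6.13 and 6.17 in Nkx2-1 high replicates 1, 2 and 3 and at 5.30, 5.26 and 5.16 in Nkx2-1 low replicates 1, 2 and 3. Every Nkx2-1 high sample lay above every Nkx2-1 low sample, by far more than the spread within a group. The means were 6.12 ± 0.054 (SD, n = 3) and 5.24 ± 0.076 (SD, n = 3), a log2 difference of 0.88 ± 0.078 (SE), or 1.84-fold (limma adjusted p = 0.000224). Leaving out each sample in turn left the difference between 0.84 and 0.91, with limma adjusted p from 0.000972 to 0.00225. In sorted bulk samples, more cells with a transcript and more of it per cell cannot be told apart. Antisense and overlapping RNAs share the Sox6 locus in RefSeq. Of these, Sox6os has a row of its own on the array. Its difference of 0.13 ± 0.090 (SE), from means of 4.69 and 4.55, did not pass (limma adjusted p = 0.493). Of 9 endothelial markers, 3 rose and 0 fell (Flt4, Tek and Eng, the last of which failed in 4 of the 6 fits that leave a sample out), and 6 did not pass. Of these 6, Emcn (0.59), Pecam1 (0.33) and Erg (0.090) lay higher in Nkx2-1 high, and Cdh5 (-0.17), Kdr (-0.076) and Esam (-0.025) lower. The summed linear level of the 9 was 354 to 494 per sample in Nkx2-1 high against 258 to 296. Eng and Emcn, the brightest of the 9 in both groups, make up a large part of both sums. In at least 1 group 7 of the 9 were above background, Pecam1, Kdr and Emcn among them, and Cdh5 and Erg were not. Their part in the rise of Sox6 was not tested.

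Sox5, the close relative that acts with Sox6 in cartilage, stood at 5.35, 5.53 and 5.71 in Nkx2-1 high and at 6.02, 5.99 and 5.79 in Nkx2-1 low. The groups did not overlap, but the lowest Nkx2-1 low sample and the highest Nkx2-1 high sample, both numbered 3, were close. The log2 difference was -0.40 ± 0.11 (SE, 95% interval -0.65 to -0.16), just short of the test (limma adjusted p = 0.0633). Sox5 passed without Nkx2-1 high replicate 3 (-0.50, limma adjusted p = 0.0317) and without both samples numbered 3 (-0.57, limma adjusted p = 0.0205). Fits restricted to brighter genes, a mean-variance trend or array weights also put it past the threshold. RefSeq lists 6 long noncoding RNAs that overlap Sox5.

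Sox13, the third SoxD gene, which is expressed in arteries and in some T cells, stood at 5.89, 6.01 and 6.16 in Nkx2-1 high and at 5.89, 5.78 and 5.97 in Nkx2-1 low. The groups overlapped, and the difference of 0.14 ± 0.093 did not pass (95% interval -0.068 to 0.35, limma adjusted p = 0.481).

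The unequal movement of the SoxD genes shows directly in their ratios within a sample, where any effect shared by an array cancels. The log2 ratio of Sox5 to Sox6 was -0.72, -0.59 and -0.46 in Nkx2-1 high and 0.72, 0.73 and 0.63 in Nkx2-1 low. Every Nkx2-1 high sample lay below every Nkx2-1 low sample, and the ratio changed by -1.29 (95% interval from limma -1.48 to -1.09). Only this change carries meaning, since the sign of a ratio depends on how bright each gene's probes are. The Sox6 to Sox13 ratio changed by 0.74 (95% interval 0.53 to 0.95) and the Sox5 to Sox13 ratio by -0.55 (-0.78 to -0.31). Each of these 3 ratios had an exact permutation p of 0.1 (two-sided), the floor of this design, which became 0.114 after adjustment over the 8 pairs compared within subgroups. Leaving out each sample in turn moved the Sox5 to Sox6 change only between -1.35 and -1.22.

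Of the SoxC genes, Sox4 fell and Sox11 and Sox12 did not pass. Sox4, a gene of neuronal precursors, mesenchyme and many embryonic epithelia, stood at 7.76, 7.63 and 7.89 in Nkx2-1 high and at 8.36, 8.23 and 8.17 in Nkx2-1 low. All 3 Nkx2-1 high samples lay below all 3 Nkx2-1 low samples. With means of 7.76 ± 0.13 (SD, n = 3) and 8.26 ± 0.097 (SD, n = 3), Sox4 fell by 0.50 on the log2 scale (SE 0.092), 1.41-fold lower (limma adjusted p = 0.0128). The call was lost without Nkx2-1 high replicate 2 (limma adjusted p = 0.0613) and without Nkx2-1 low replicate 1 (limma adjusted p = 0.0508), so that 1 of the 10 genes passed in those fits. The lowest and highest difference over the fits without 1 sample were -0.56 and -0.43.

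Sox11, the SoxC relative that acts with Sox4 in young neurons, stood at 8.53, 8.52 and 8.65 in Nkx2-1 high and at 8.89, 8.77 and 8.76 in Nkx2-1 low. The groups did not overlap. The difference was -0.25 ± 0.080 (95% interval -0.42 to -0.066) and did not pass after adjustment over all genes (limma adjusted p = 0.120). The Sox4 to Sox11 ratio itself was lower in every Nkx2-1 high sample, at -0.76, -0.89 and -0.76 against -0.53, -0.54 and -0.59. Its change of -0.25 (95% interval -0.42 to -0.081) reached an exact permutation p of 0.1, adjusted 0.114. The third SoxC gene, Sox12, differed by 0.088 ± 0.074 (limma adjusted p = 0.595).

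As a list, neuronal genes were lower in Nkx2-1 high, as Sox4 was. Whether they follow Sox4 was not tested. Of 14 neuronal genes linked to Sox4 and Sox11, 8 fell and 0 rose, with a median difference of -0.58 against -0.0083 over all genes. Of all genes 3.09% fell and 2.90% rose. The neuronal filament gene Ina fell by 1.58 on the log2 scale (SE 0.14), the growth cone gene Gap43 by 0.89 (SE 0.11), and the microtubule genes Dcx and Stmn2, above background only in Nkx2-1 low, lay lower in Nkx2-1 high by at least 2.24-fold (Dcx) and at least 1.75-fold (Stmn2). Among the 8 was also Neurod1, which was not above background. Tead2, a direct Sox11 target in mouse, stood at 8.93 and 8.79 and did not pass (chosen after its values were seen). The count lower ran from 6 to 9 over the fits without 1 sample. Summed on the linear scale, the 14 genes came to 874 to 928 per sample in Nkx2-1 high and 1101 to 1133 in Nkx2-1 low. Tead2, by far the brightest of the 14 and not among those that fell, makes up a large part of both sums. Mesenchyme markers moved the same way, with 7 of 11 lower and 0 higher, and their sum was 2653 to 3543 against 5764 to 7026. Of these, Col1a2 (-1.50 ± 0.081), Postn (-2.34 ± 0.16) and Prrx1 (-1.90 ± 0.14) had among the smallest p, with Pdgfra 3.99-fold lower. All 11 mesenchyme markers were above background in at least 1 group. The part of neuronal and mesenchymal cells in the fall of Sox4 was not tested.

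**Figure D2:**
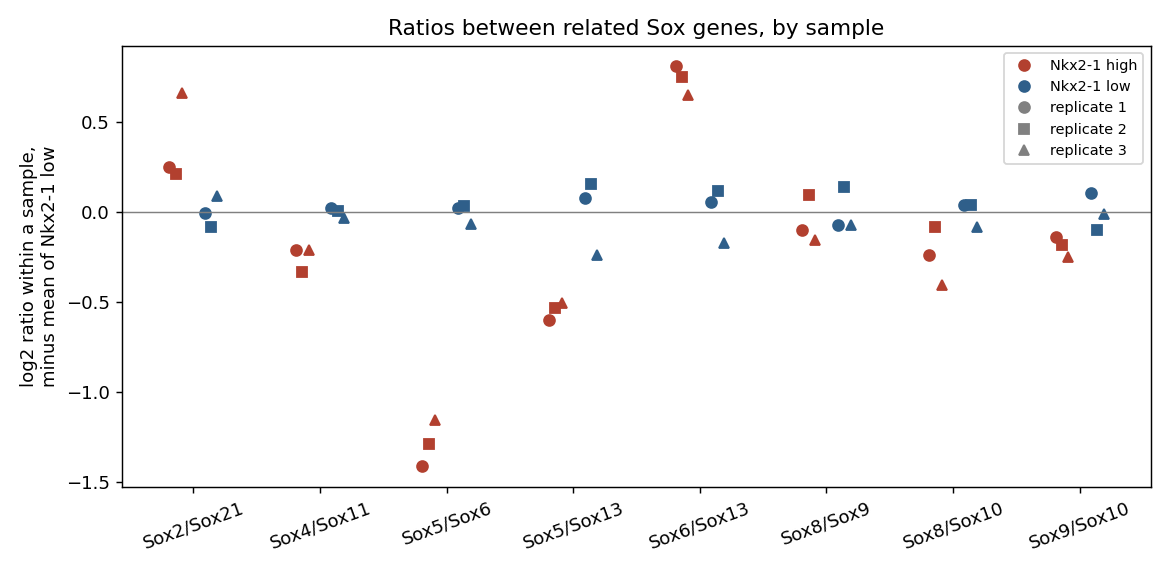
Log2 ratio of 2 Sox genes within each sample, minus the mean of that ratio in Nkx2-1 low, for the 8 pairs compared within subgroups, with red points for Nkx2-1 high, blue for Nkx2-1 low and the marker shape for the replicate number. The Sox5 to Sox6 ratio shows the widest gap, a change of -1.29, while the groups overlap for Sox8 to Sox9.

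The SoxE genes, taken 1 by 1, did not pass. Sox9, the master regulator of cartilage and a marker of lung bud tips, stood at 7.83, 7.79 and 7.88 in Nkx2-1 high and at 7.87, 7.82 and 7.90 in Nkx2-1 low. The 6 values interleave within a narrow range. The 95% interval of the difference ran from -0.19 to 0.14 (limma adjusted p = 0.886). Sox8, a relative active in gonad, crest and muscle precursors, stood at 5.90, 6.06 and 5.89 against 5.97, 6.13 and 5.99, a difference of -0.080 ± 0.085 (95% interval -0.27 to 0.11, limma adjusted p = 0.685). Sox10, the gene of neural crest and its glia, stood at 5.42, 5.43 and 5.58 in Nkx2-1 high and at 5.21, 5.38 and 5.36 in Nkx2-1 low. Its groups did not overlap, though by a small margin, and the 95% interval of the difference ran from -0.026 to 0.35 (limma adjusted p = 0.346). The Sox8 to Sox10 ratio changed by -0.24 (95% interval -0.46 to -0.028) and the Sox9 to Sox10 ratio by -0.19 (-0.38 to -0.0045), each with an exact permutation p of 0.1, adjusted 0.114. Both intervals use a variance that limma pools with single genes, are not adjusted over the 8 pairs, and are not read as tests. For Sox8 to Sox9 the change was -0.052 (95% interval -0.27 to 0.17, exact permutation p = 0.5).

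Genes linked to the SoxE and SoxD proteins, and markers of the oligodendrocyte lineage, were read in 3 lists. They stand beside the 6.0% called among all genes and 8.40% among genes above background. Of 16 cartilage genes activated by Sox9 with Sox5 and Sox6, 1 rose and 0 fell, with a median difference of 0.020. The riser was the collagen gene Col9a2 (0.35 ± 0.087, limma adjusted p = 0.0456), which failed the test whenever a sample was left out. Col2a1, the cartilage collagen gene and best known Sox9 target, stood at 7.41 ± 0.26 (SD, n = 3) and 7.66 ± 0.14 (SD, n = 3), and Acan, the aggrecan gene, was not above background (both chosen after their values were seen). In all, 10 of the 16 were above background, and the summed level was 725 to 807 per sample in Nkx2-1 high and 757 to 795 in Nkx2-1 low. Of 12 measured Schwann, glial and pigment genes linked to Sox10, 2 rose and 0 fell. They were Mitf, the master gene of pigment cells that other tissues also use (0.82 ± 0.11, 1.77-fold), and Pmp22, a peripheral myelin gene with wide expression elsewhere (0.64 ± 0.082, 1.55-fold), and both passed in 6 of the 6 fits without 1 sample. The melanocyte gene Dct and the glial gene S100b were not above background. Of 8 oligodendrocyte lineage genes, Cnp (0.33 ± 0.078) and Myrf (0.32 ± 0.078) rose and 0 fell, neither of which passed once any sample was left out, while the myelin genes Mag and Mog were not above background.

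The SoxB genes did not pass. Sox2, the gene of pluripotent and neural progenitors and of the foregut and airway, stood at 6.17, 6.04 and 6.71 in Nkx2-1 high and at 6.07, 6.03 and 6.50 in Nkx2-1 low. In both groups the sample numbered 3 was the highest, and the groups overlapped. Its SE of 0.18 was the largest of the 10 genes. The 95% interval of the difference ran from -0.29 to 0.51, and without Nkx2-1 high replicate 3 the sign turned, to -0.094. RefSeq places Sox2 inside the long noncoding gene Sox2ot, which was not used here. Sox21, a SoxB2 gene that promotes neurogenesis and takes part in airway epithelium, stood at 4.83, 4.75 and 4.97 in Nkx2-1 high and at 4.99, 5.03 and 5.33 in Nkx2-1 low. Every Nkx2-1 low sample lay above the Nkx2-1 high samples, the nearest pair by a small margin, and the difference of -0.27 ± 0.11 did not pass (95% interval -0.51 to -0.026, limma adjusted p = 0.211). Taken within samples, the Sox2 to Sox21 ratio was 1.33, 1.29 and 1.74 in Nkx2-1 high and 1.08, 1.00 and 1.17 in Nkx2-1 low. It was higher in every Nkx2-1 high sample, by 0.38 on average (95% interval from limma 0.10 to 0.65, exact permutation p = 0.1, adjusted 0.114). The SD of this ratio was 0.25 in Nkx2-1 high and 0.086 in Nkx2-1 low. Its interval uses a variance that limma pools with single genes and is not adjusted over the 8 pairs. It is therefore not read as a test.

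Genes that go with SoxB1 in neural progenitors moved in both directions. Of 14, 3 fell and 1 rose, with a median difference of -0.082. This count and that of the lung list below stand beside 3.09% of all genes that fell and 2.90% that rose. The receptor gene Notch1 fell by 0.56 on the log2 scale (SE 0.089) and passed in 6 of the 6 fits without 1 sample. The radial glial gene Fabp7 (-0.60 ± 0.14) and the intermediate filament gene Nes (-0.41 ± 0.10) no longer passed in 4 and 5 of the 6 such fits. Rax, an eye field and hypothalamus gene above background only in Nkx2-1 high, rose at least 1.32-fold and failed in 2 of the 6. Of 16 lung and airway epithelium genes, 1 rose and 2 fell, with a median of 0.024. Bmp4, a signal of the distal bud where Sox9 is expressed, rose (0.97 ± 0.086). Id2 (-0.46 ± 0.097) and Fgfr2 (-0.61 ± 0.15), also tip genes, fell, and dropped below the threshold in 4 and 5 of those fits.

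**Figure D3:**
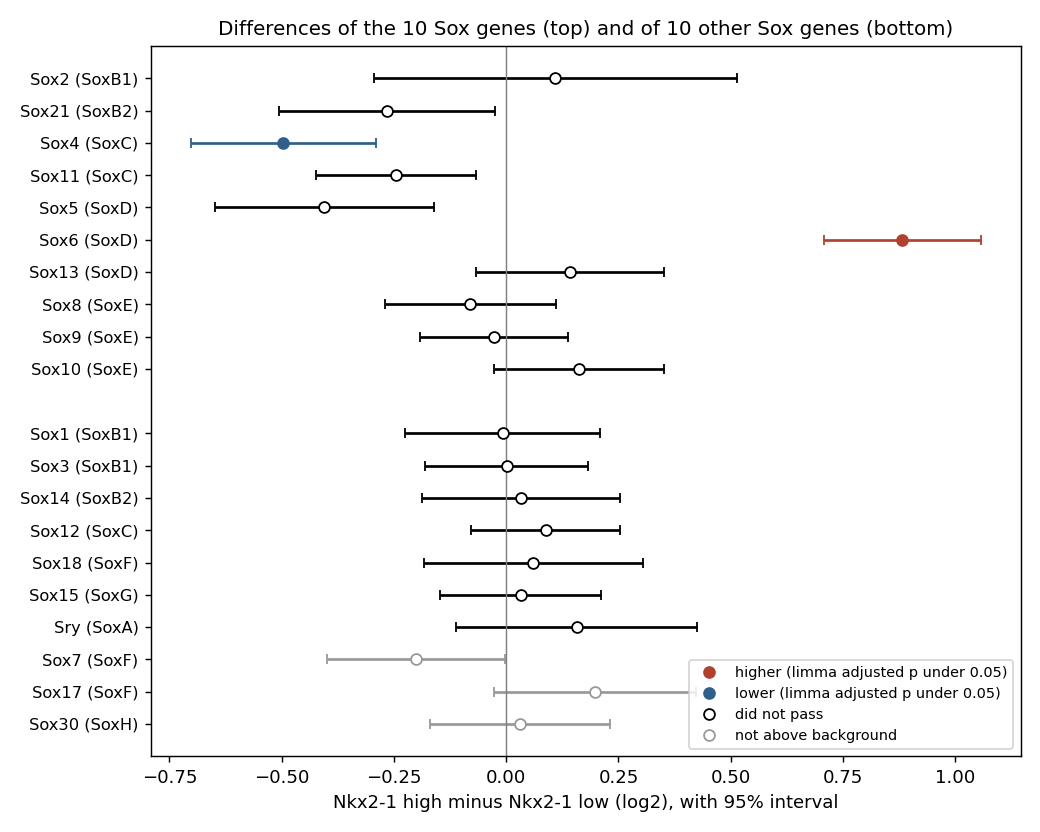
Log2 difference, Nkx2-1 high minus Nkx2-1 low, of the 10 Sox genes (top) and of 10 other Sox genes (bottom), with the 95% interval from limma, filled where the adjusted p was under 0.05 and grey where the gene was not above background. Sox6 at 0.88 and Sox4 at -0.50 are the filled points, and none of the lower 10 is filled.

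The rest of the family, 10 further mouse Sox genes, held 0 calls by limma. Sox7 alone had an unadjusted p under 0.05, in the lower direction. Of them, 7 were above background in at least 1 group. The SoxB1 genes Sox1 and Sox3, which overlap with Sox2 in the neural tube, stood at 5.98 ± 0.028 (SD, n = 3) against 5.99 ± 0.18 (SD, n = 3), and at 6.47 ± 0.11 (SD, n = 3) against 6.47 ± 0.018 (SD, n = 3). The SoxB2 gene Sox14, a gene of interneurons, differed by 0.033 ± 0.098 and the SoxG gene Sox15 by 0.032 ± 0.080. Sry, the testis-determining gene on the Y chromosome, differed by 0.16 ± 0.12. Among the SoxF genes of endothelium, Sox18 stood at 4.43 and 4.37, next to the background level, and Sox7 and Sox17 were not above it. Sox17 is also a gene of definitive endoderm. Sox30, a gene of male germ cells, was not above background. The median absolute difference of these 10 was 0.047. It is not set against that of the 10 genes described first, which were proposed with results of these data known.

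Nkx2-1, the gene of the sort, stood at 7.62 to 7.77 in Nkx2-1 high and 5.23 to 5.42 in Nkx2-1 low, and its difference of 2.39 ± 0.084 (limma adjusted p = 3.03e-06) matches the labels. The early thyroid genes Hhex (0.98 ± 0.15) and Pax8 (0.60 ± 0.10) rose, 2 of 6 measured on that list, beside 2.90% of all genes. Limma called 0 of 8 endoderm genes, and 1, higher in Nkx2-1 high, had an unadjusted p under 0.05. On this list Cxcr4 stood at 9.17 and 8.91 and Foxa2 at 5.74 and 5.78. Of 10 epithelial genes Epcam alone passed, and it fell (-0.81 ± 0.11). Of 7 pluripotency genes, among them Nanog and Dppa5a, 0 were above background.

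For Sox6 and Sox4, the genes with the most similar pattern were named by Pearson correlation over the 6 samples, among 13403 other genes above background. The closest to Sox6 were Mdga2 (r = 0.999), a synaptic adhesion gene, Mbip (r = 0.999) and Kcng3 (r = 0.997), a potassium channel subunit gene. Their log2 differences were 0.77, 1.34 and 1.15, and all passed. RefSeq (GRCm38.p6) places Mbip directly beside Nkx2-1 among protein-coding genes. Closest to Sox4 were Dkk3 (r = 0.993), which encodes a secreted protein of the Dickkopf family, the phosphatase gene Ptprr (r = 0.993) and the methyltransferase gene Tpmt (r = 0.993), with differences of -0.47, -0.83 and -0.36. With 6 samples in 2 groups, any gene with a clean group difference correlates highly. As many as 255 genes correlated above 0.95 with Sox6 and 125 with Sox4, so the order among them carries little information.

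**Figure D4:**
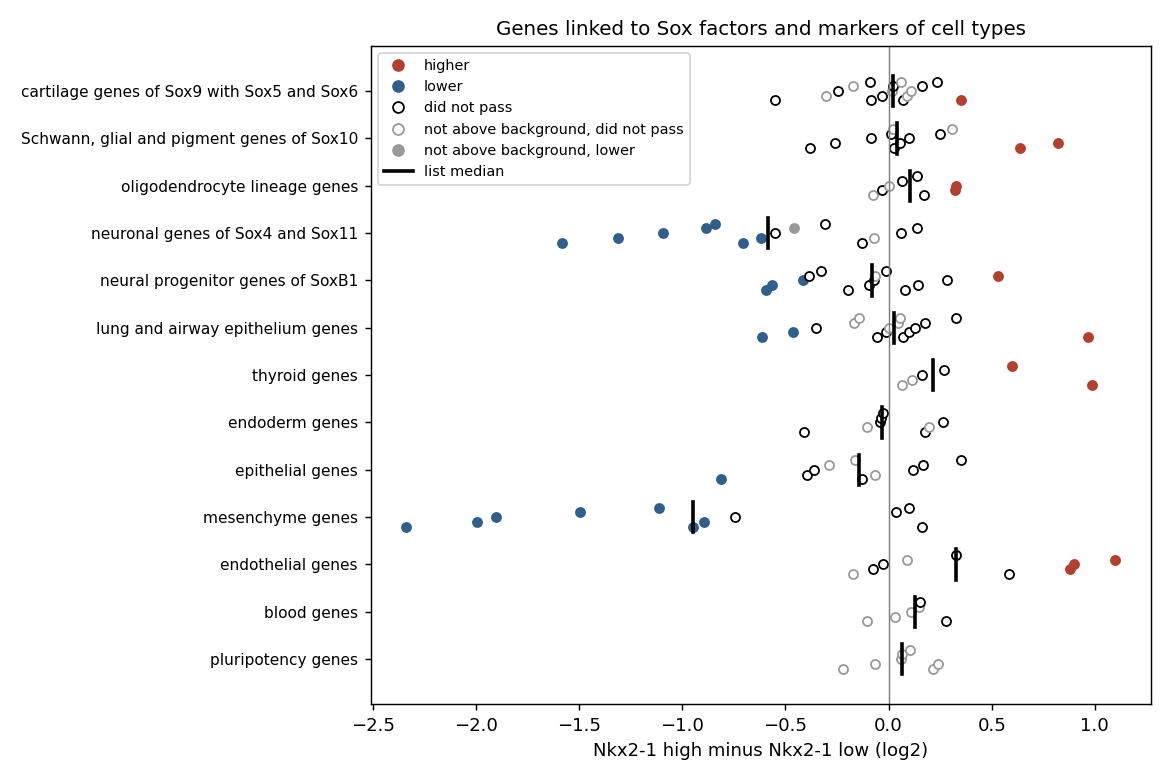
Log2 difference, Nkx2-1 high minus Nkx2-1 low, of each measured gene of 13 lists, with filled points for limma adjusted p under 0.05 and a black bar for the list median. Neuronal genes (median -0.58) and mesenchyme genes (median -0.95) lie furthest to the left, and cartilage genes centre on 0.020.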

How the data were processed

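Per the submitters' processing notes, the authors processed the arrays with RMA, which corrects background, equalises arrays and gives 1 value per transcript cluster. The deposited values were read as log2 expression, from RMA's usual output and from array medians of 4.98 to 5.06, since no source states the scale. RNA was amplified before labelling, per the labels' protocols. Neither an RMA version nor a build is given in the sources used here. Of 29011 rows, 21789 had 1 symbol in GEO's platform annotation, 1621 several and 5601 none, and the last 2 kinds were left out. All but 91 single-symbol rows matched RefSeq. The row with the highest mean was kept per gene, giving 19938 genes.

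Groups were compared with limma 3.58.1 (R 4.3.3, lmFit and eBayes, all 6 samples, group only), with Benjamini-Hochberg adjustment over all genes, and differences (log2) are high minus low. Ratios of related genes were compared by exact permutation over 8 pairs, with intervals from limma on the ratios fitted together with all genes. The variance behind these intervals is thus pooled with that of single genes, although a ratio carries the noise of 2 genes. The intervals are not adjusted over the 8 pairs. The limma procedure was tested on simulated data. A gene above the background level of 4.30 (1210 receptor rows) in only 1 group has its fold taken against that level and written as "at least". The members, gene lists and tests were chosen with earlier results of these data known. From each list up to 4 called genes with the smallest p are named, or the 2 brightest where none passed. Alternatives covered scaling, filters, the variance model, array weights, a replicate block, the row rule, the threshold, the test and left-out samples. Samples of a group differed by a median of 0.097 to 0.13 (log2) over genes, and no sample copied another. No source used here gives array batches. The number of arrays limits the precision. Figures were drawn with matplotlib 3.10.9.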

Additional observations from a re-analysis of the deposited data

How the results depend on the processing

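The count of Sox genes past the threshold was 2, and the count of all genes 1196. With a threshold of 0.01, limma treat against a log2 change of 0.2, or a test per gene without eBayes, the Sox count was 1 each time and the count of all genes 507, 385 and 89. Leaving out 1 sample gave 1 to 3 Sox genes and 624 to 1086 genes in all. Sox6 passed under every alternative run. Sox4 kept its difference of -0.50 but not its call under those 3 settings, and it ran from -0.56 to -0.43 without 1 sample. Sox5 passed at -0.40 with only genes above background, only genes brighter than the median gene, or a mean-variance trend, at -0.42 with array weights and at -0.57 without both samples numbered 3, and ran from -0.50 to -0.31 without 1 sample. Differences near 0 changed sign. Sox2 went to -0.0058 with array weights and ran from -0.094 to 0.26 without 1 sample. With array weights Sox3, Sox14 and Sox18 went to -0.042, -0.0067 and -0.012, cyclic loess put Sox1 at 0.0034, and without both samples numbered 3 Sox1, Sox3 and Sox18 stood at 0.017, -0.064 and -0.11. Without 1 sample Sox1 ran from -0.10 to 0.075, Sox3 from -0.059 to 0.043, Sox14 from -0.051 to 0.093, Sox15 from -0.014 to 0.077, Sox18 from -0.033 to 0.13, Sox30 from -0.031 to 0.088 and the change of the Sox8 to Sox9 ratio from -0.13 to 0.019. The causes were not tested.

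The replicate block used numbers that no label ties to a shared culture. Same-numbered samples correlated in their deviations at 0.18, -0.0041 and 0.28. Nkx2-1 high replicates 1 and 3 correlated best with their own number, and Nkx2-1 high replicate 2 did not. These values do not settle whether the numbers pair the samples. With the replicate block 2 Sox genes and 1470 genes in all passed, with Sox4 at limma adjusted p = 0.0148, Sox5 at 0.0798 and Sox6 at 0.000618. Signal near background limits Sox18, Sox7, Sox17 and Sox30, for which these arrays cannot show a small change.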

Other observations

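Of 9 endothelial markers, 3 rose and 0 fell, with a median difference of 0.33: the lymphatic receptor gene Flt4 (1.10 ± 0.078), the angiopoietin receptor gene Tek, above background only in Nkx2-1 high and at least 1.73-fold higher, and Eng (0.88 ± 0.21), which failed in 4 of the 6 fits that leave a sample out. The count higher ran from 2 to 4 over those fits. The other 6 did not pass: Emcn, Pecam1 and Erg lay higher and Cdh5, Kdr and Esam lower. Over all genes 2.90% rose. Of the SoxF genes that endothelium uses, Sox7, Sox17 and Sox18, 0 passed, and only Sox18 was above background. Limma called 0 of 6 blood markers, and 0 had an unadjusted p under 0.05.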
